A study of Homo sapiens with 8 samples.

Results

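The set described here holds EI24 and 46 other genes of the autophagy machinery, 47 of the 18417 genes measured by array in ZR-75-1 cells, a luminal breast cancer line. The genes were chosen by name for their step in autophagy, from initiation to fusion with the lysosome, with earlier results of these data known. Each gene was read from the transcript cluster (the probes that the array summarizes into 1 value) with the highest mean over the arrays, and all 47 were measured.

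Autophagy encloses cytoplasm in a double membrane, the autophagosome, which fuses with a lysosome so that its cargo is degraded. A kinase complex around ULK1 starts the process, a lipid kinase complex around PIK3C3 marks the growing membrane, lipid transfer proteins expand it, and a pair of ubiquitin-like conjugation systems attaches ATG8 proteins to it. Receptors tie cargo to the ATG8 proteins, and SNARE proteins and tethers bring about fusion. EI24 is a membrane protein of the endoplasmic reticulum that was first found as a gene induced by etoposide through p53, and its Caenorhabditis elegans counterpart EPG-4 is needed for autophagosome formation.

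The lines were shEI24 clone 1 and shEI24 clone 2, both carrying a short hairpin RNA against EI24, then shGFP cells, which carry a hairpin against GFP as the control, and parental cells, which carry none. Each line was measured on 2 arrays, 8 in all. Cells of every line were grown in RPMI medium with serum and received no chemical treatment. The submitters call the knockdown lines independent clones, so each may be the progeny of a selected clone. The hairpin sequence is not given in the sources used here. Whether a line's 2 arrays stem from separate cultures is not stated, and p-values therefore reflect the spread of these arrays alone, which may be technical. All values below are log2 intensities, a scale on which a difference of 1 is a 2-fold change, and levels were compared between lines for the same gene and not between genes. Array values are relative to the whole array. Each array measured RNA of many cells together, so fewer cells with an RNA and less of that RNA per cell cannot be told apart.

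The label of a luminal epithelial line was checked against markers. The mean over 12 luminal markers lay between 8.73 and 9.08 in the shEI24 arrays, against 11.96 to 12.05 in the control arrays (shGFP and parental), and 12 of 12 were called lower. The estrogen receptor ESR1 fell by 4.80 and E-cadherin CDH1 by 6.11 on the log2 scale. Both lay in the dimmest 25% of genes in the shEI24 arrays, which goes against the luminal label there, and these changes may be lower bounds. The mean over 12 mesenchymal markers was 10.30 to 10.43 in the shEI24 arrays and 6.50 to 6.86 in the control arrays, and 11 of 12 were called higher, with vimentin (VIM) up by 6.20. Of this list CDH2 was in the dimmest 25% in both, and ZEB1, ZEB2, SNAI2, CDH11 and MSN in the control arrays alone. The means over markers of other cell types were low: 6.06 to 6.26 in shEI24 arrays against 5.94 to 6.05 in control arrays for 8 fibroblast markers, 5.89 to 6.04 against 5.59 to 5.79 for 5 immune markers, and 6.36 to 6.57 against 5.84 to 6.03 for 5 endothelial markers. DCN, LUM, PDGFRA and FAP of the fibroblast list and PTPRC, CD3E and LYZ of the immune list were in the dimmest 25% in both, as were PECAM1, VWF and TEK of the endothelial list. The endothelial markers CDH5 and KDR were in it in the control arrays alone. Of these lists 1 of 8 fibroblast, 2 of 5 immune (up to 0.89, CD14) and 2 of 5 endothelial markers (up to 1.82, KDR) were called higher. The luminal and mesenchymal shifts go with every difference between shEI24 and control arrays given below, and their part in those differences was not tested.

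EI24 itself checks the labels. It measured 8.64 and 8.43 in shEI24 clone 1 and 9.25 and 9.19 in clone 2, against 11.97 and 11.91 in shGFP cells and 12.08 and 12.09 in parental cells. All 4 shEI24 arrays lay far below all 4 control arrays, and clone 1 lay below clone 2. EI24 RNA was 8.35-fold lower in the clones than in shGFP cells (log2 fold change -3.06, SE 0.08, limma adjusted p = 8.6e-09), and the difference from parental cells was -3.21 on the same scale. The clones differed from each other as well, with clone 1 lower by 1.60-fold (clone 1 minus clone 2 -0.68, SE 0.10, limma adjusted p = 0.0023). Of the measured genes beside EI24 on chromosome 11, STT3A, a catalytic subunit of the oligosaccharyltransferase, was at 12.64, 12.53, 12.24 and 12.24 in the shEI24 arrays against 11.88 and 11.86 in shGFP cells and 12.02 and 11.97 in parental cells. STT3A thus moved opposite to EI24 (0.55, SE 0.07, limma adjusted p = 0.00018), while LOC403312 on the other side was not called (0.28, SE 0.13, limma adjusted p = 0.099).

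The autophagy genes moved in both directions. Against shGFP cells, 17 of the 47 were called higher in the shEI24 clones (36.2%), beside 26.8% of all genes, 16 were called lower (34.0%), beside 29% of all genes, and 14 were not called. A call is an adjusted p under 0.05 in limma, with adjustment over all 18417 genes. All genes include many dim ones. With the dimmest 25% of genes left out, 17 of the set were higher, beside 30.6% of the genes kept, and 17 lower, beside 37.4%. With a change of at least 2-fold besides, 6 were higher (GABARAPL1, OPTN, WIPI1, SQSTM1, PIK3C3 and TAX1BP1), beside 8.69% of all genes, and 3 were lower (EI24, ULK2 and ATG10), beside 9.08%. All 4 shEI24 arrays lay above all 4 control arrays for 16 of the 47, beside 23.8% of all genes, and below them for 14, beside 26.9%. The median log2 fold change was 0.05 over the 47 and 0.08 over all genes. Without EI24, which the hairpin targets, 17 were higher, 15 lower and 14 not called. Against parental cells in place of shGFP cells, 17 were called higher, beside 25.1% of all genes, and 17 lower, beside 30.8%, with a median of 0.03. Both comparisons share the shEI24 arrays. With each line taken as 1 replicate and both control lines pooled, 13 were higher, beside 14.9% of all genes, and 8 lower, beside 18.6%, and the calls of ATG13, ATG101, BECN1, UVRAG, ATG2B, VMP1, ATG7, ATG12, GABARAPL2, SQSTM1, SNAP29 and TFEB were lost.

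**Figure D1:**
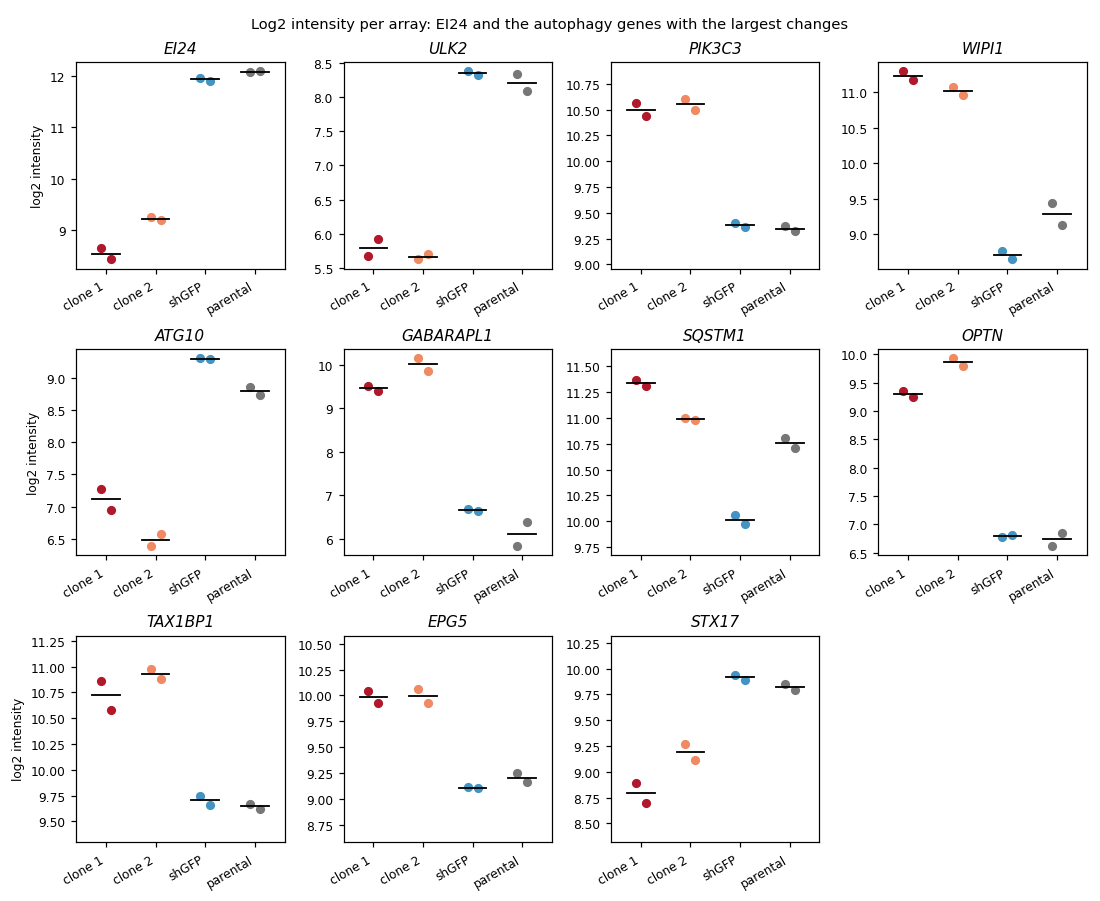
Log2 intensity of EI24 and of the autophagy genes with the largest changes in each of the 8 arrays, with shEI24 clone 1 and clone 2 left of shGFP and parental cells; points are arrays, bars are line means, and each panel has its own y axis. EI24, ULK2, ATG10 and STX17 lie lower in all 4 shEI24 arrays than in any control array, and the other genes shown lie higher.

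The initiation genes showed no called rise, beside 26.8% of all genes called higher. Of 6 measured, 4 fell, beside 29% of all genes, and 2 were not called, with a median log2 fold change of -0.35. ULK2, a kinase closely related to ULK1, measured 5.67 and 5.92 in clone 1 and 5.63 and 5.70 in clone 2, against 8.37 and 8.32 in shGFP cells and 8.33 and 8.08 in parental cells. The groups were well apart, and the level in the clones was in the dimmest 25% of genes (percentile 12.8, against 56.0 in controls). The 6.14-fold decrease may therefore be a lower bound (log2 fold change -2.62, SE 0.10, limma adjusted p = 7.6e-08). ULK1, the kinase that starts autophagy, was at 8.70, 8.86, 8.91 and 9.06 in the shEI24 arrays, against 9.12 and 9.07 in shGFP cells and 9.00 and 9.01 in parental cells. These ranges overlap, and ULK1 was not called (-0.21, limma adjusted p = 0.057), but lay close to the threshold and was called lower with the replicate number as a block (limma adjusted p = 0.028). AMBRA1, a scaffold that links the ULK1 and BECN1 complexes, was at 8.67, 8.60, 8.75 and 8.62 in the shEI24 arrays, against 9.36 and 9.35 in shGFP cells and 9.46 in both parental arrays. It was lower in every shEI24 array than in every control array (-0.69, limma adjusted p = 4.8e-05). The other subunits of the ULK1 complex changed less: ATG13 fell by 0.38 and ATG101, which stabilizes ATG13, by 0.32, while RB1CC1, the scaffold FIP200, had a log2 fold change of -0.28 and was not called (limma adjusted p = 0.096). Without shGFP replicate 1 the call of ATG101 was lost (limma adjusted p = 0.19).

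In the nucleation group, the lipid kinase and its regulatory subunit moved apart. PIK3C3, the catalytic subunit VPS34 that makes phosphatidylinositol 3-phosphate, was at 10.56 and 10.44 in clone 1 and 10.60 and 10.50 in clone 2, against 9.40 and 9.36 in shGFP cells and 9.37 and 9.32 in parental cells. Every shEI24 array was above every control array, and the difference was 2.21-fold (log2 fold change 1.14, SE 0.08, limma adjusted p = 2.3e-06). PIK3R4, the subunit VPS15 that anchors PIK3C3, was at 9.54, 9.35, 9.54 and 9.38 in the shEI24 arrays, against 10.13 and 10.00 in shGFP cells and 10.13 and 10.22 in parental cells. It was lower in all 4 shEI24 arrays (-0.61, SE 0.09, limma adjusted p = 4e-04). BECN1, the Beclin 1 subunit shared by both PIK3C3 complexes, was called higher by 0.26 (limma adjusted p = 0.022), but its 9.48 to 9.68 in shEI24 arrays overlapped the parental arrays at 9.51 and 9.37. Of the subunits that set the complexes apart, ATG14, which directs the complex to autophagosome formation, had a log2 fold change of 0.03 (limma adjusted p = 0.85), and UVRAG, of the endosomal complex, was called lower (-0.31, limma adjusted p = 0.020). BECN1 and UVRAG were not called against parental cells (0.16 and -0.14, limma adjusted p = 0.11 and 0.24). Their calls were also lost without shGFP replicate 1 (limma adjusted p = 0.067 for BECN1 and 0.11 for UVRAG) and without shGFP replicate 2 (0.18 for BECN1 and 0.10 for UVRAG).

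Genes of the membrane and lipid transfer group mostly rose. Of 8 measured, 6 were higher, beside 26.8% of all genes, and 2 lower, beside 29%, with a median log2 fold change of 0.64. WIPI1, which binds phosphatidylinositol 3-phosphate on the forming membrane, was at 11.29 and 11.17 in clone 1 and 11.07 and 10.96 in clone 2, against 8.77 and 8.65 in shGFP cells and 9.44 and 9.13 in parental cells. Every shEI24 array was above every control array, and shGFP cells were the lowest line. The difference was 5.32-fold against shGFP cells (log2 fold change 2.41, SE 0.10, limma adjusted p = 1.2e-07), with a log2 fold change of 1.84 against parental cells. Its relatives moved the same way by less: WDR45 (WIPI4) rose by 0.73 and WIPI2, which recruits ATG16L1, by 0.56. ATG9A, a lipid scramblase carried on vesicles to the forming membrane, was at 9.86, 9.76, 9.85 and 9.76 in the shEI24 arrays, against 9.14 and 9.18 in shGFP cells and 9.39 and 9.28 in parental cells. It rose by 0.64, as did TMEM41B, a scramblase of the endoplasmic reticulum.

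The paralogs of the lipid transfer protein ATG2 moved in opposite directions. ATG2A was at 8.91, 8.90, 9.09 and 9.08 in the shEI24 arrays, against 8.26 and 8.36 in shGFP cells and 8.67 and 8.52 in parental cells. ATG2B was at 9.19, 8.88, 9.38 and 9.30 in the shEI24 arrays, against 9.90 and 9.76 in shGFP cells and 9.51 and 9.49 in parental cells. Neither gene's groups overlapped, with ATG2A higher by 0.69 (limma adjusted p = 6.3e-05) and ATG2B lower (-0.64, limma adjusted p = 5e-04). A second cluster of ATG2B gave a log2 fold change of -0.74 (limma adjusted p = 0.00016). VMP1, a scramblase of the endoplasmic reticulum that acts with TMEM41B, was called lower (-0.40, limma adjusted p = 0.0012). Its shEI24 arrays at 12.57, 12.49, 12.29 and 12.28 overlapped the parental arrays at 12.58 and 12.53, and it was not called against parental cells (-0.15, limma adjusted p = 0.10).

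**Figure D2:**
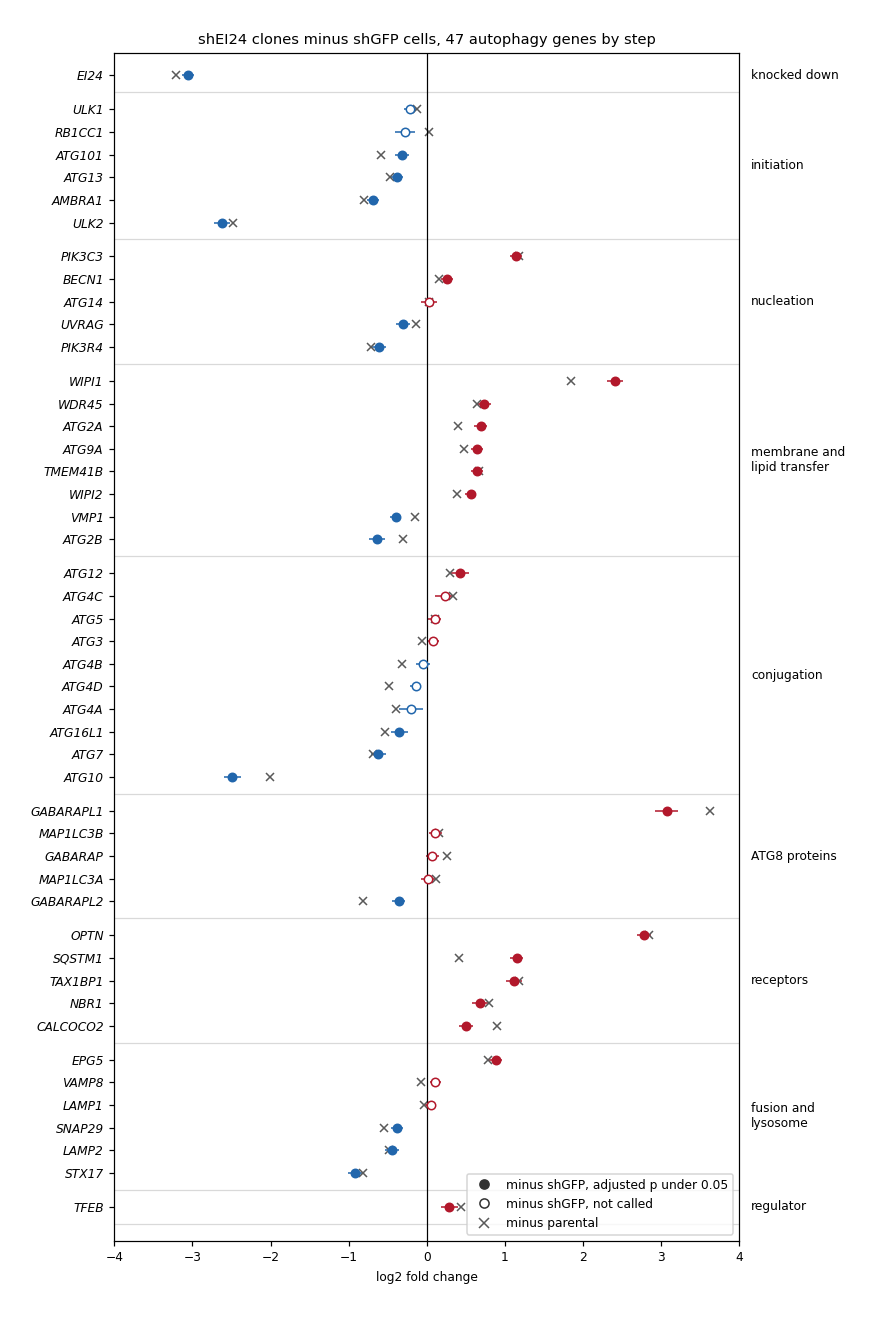
Log2 fold change of each of the 47 genes, shEI24 clones minus shGFP cells (circles, with bars of 1 standard error, filled where the limma adjusted p is under 0.05) and minus parental cells (crosses), grouped by step. The 5 receptors and 6 of 8 membrane genes lie right of 0, none of the initiation genes was called higher, and GABARAPL1 (3.07) and EI24 (-3.06) are the extremes against shGFP cells.

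In the conjugation systems, the calls depended on the control. Of 10 measured, 1 was higher, 3 were lower and 6 were not called against shGFP cells (median log2 fold change -0.09). Against parental cells 1 was higher, 6 were lower and 3 were not called (median -0.36). Of all genes, 26.8% were higher and 29% lower against shGFP cells, and 25.1% and 30.8% against parental cells. ATG10, the E2-like enzyme that passes ATG12 to ATG5, was at 7.28 and 6.94 in clone 1 and 6.39 and 6.57 in clone 2, against 9.30 and 9.28 in shGFP cells and 8.86 and 8.73 in parental cells. All 4 shEI24 arrays were below all 4 control arrays, and shGFP cells were the highest line. ATG10 was 5.63-fold lower than in shGFP cells (log2 fold change -2.49, SE 0.11, limma adjusted p = 1.4e-07), with a log2 fold change of -2.01 against parental cells. In the shEI24 arrays ATG10 was at percentile 28.4, close to the dimmest 25% of genes, so its differences may be compressed. ATG7, the E1-like enzyme of both systems, was at 8.99, 8.70, 8.39 and 8.19 in the shEI24 arrays, against 9.18 and 9.20 in shGFP cells and 9.30 and 9.21 in parental cells. It was lower in every shEI24 array, and more so in clone 2 (-0.62, SE 0.10, limma adjusted p = 0.00069).

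ATG12, the ubiquitin-like protein joined to ATG5, differed between the clones. It was at 8.44 and 8.28 in clone 1 and 9.72 and 9.31 in clone 2, against 8.56 and 8.49 in shGFP cells and 8.71 and 8.57 in parental cells. Clone 2 was above every control array and clone 1 below, so the call of the mean over both (0.42, limma adjusted p = 0.015) rests on clone 2. The log2 fold change was -0.16 in clone 1 (limma adjusted p = 0.35) and 0.99 in clone 2 (limma adjusted p = 0.00023). ATG16L1, which places the ATG12-ATG5 conjugate on the membrane, was lower (-0.35, limma adjusted p = 0.025). Both calls were lost without shGFP replicate 1 (limma adjusted p = 0.058 for ATG12 and 0.19 for ATG16L1) or 2 (0.096 for ATG12 and 0.053 for ATG16L1), and that of ATG16L1 also without replicate 2 of clone 1 (0.053) or of clone 2 (0.063). ATG5, the acceptor of ATG12, and ATG3, the E2-like enzyme of the ATG8 proteins, had log2 fold changes of 0.10 and 0.08, neither called. The ATG4 proteases, which process ATG8 proteins and release them from membranes, were not called against shGFP cells either, at -0.20 for ATG4A, -0.05 for ATG4B, 0.23 for ATG4C and -0.14 for ATG4D. Against parental cells all 4 were called, ATG4A (-0.40, limma adjusted p = 0.045), ATG4B (-0.32, 0.011) and ATG4D (-0.48, 0.00045) lower and ATG4C higher (0.33, 0.042). With both controls pooled, ATG4B, ATG4C and ATG4D were called. A second cluster of ATG4B gave -0.05.

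The ATG8 proteins did not move as a group: against shGFP cells 1 rose, 1 fell and 3 were not called, beside 26.8% of all genes higher and 29% lower. GABARAPL1 was at 9.51 and 9.40 in clone 1 and 10.15 and 9.86 in clone 2, against 6.69 and 6.63 in shGFP cells and 5.83 and 6.39 in parental cells. The clones were far above both control lines, and the mean of the control arrays was in the dimmest 25% of genes (percentile 24.6). GABARAPL1 was 8.41-fold higher than in shGFP cells (log2 fold change 3.07, SE 0.15, limma adjusted p = 2.9e-07), with a log2 fold change of 3.62 against parental cells. The percentile pools both control lines, of which parental cells were the dimmer, so both differences may be lower bounds. The rise of GABARAPL1 was the largest among the 47. GABARAPL2, also called GATE-16, was at 10.78, 10.72, 10.86 and 10.74 in the shEI24 arrays, against 11.16 and 11.11 in shGFP cells and 11.61 and 11.58 in parental cells. It was lower in every shEI24 array, by less against shGFP cells (-0.36, limma adjusted p = 0.0028) than against parental cells (-0.82, limma adjusted p = 1.6e-05).

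The remaining ATG8 genes were not called against shGFP cells. GABARAP was at 12.70, 12.58, 12.65 and 12.61 in the shEI24 arrays, against 12.59 and 12.54 in shGFP cells and 12.40 and 12.35 in parental cells (0.07, limma adjusted p = 0.47). MAP1LC3B, which encodes the LC3B used to mark autophagosomes, was at 7.49, 7.63, 7.64 and 7.68 in the shEI24 arrays, against 7.52 and 7.48 in shGFP cells and 7.47 and 7.42 in parental cells (0.11, limma adjusted p = 0.24). MAP1LC3A was at 6.64, 6.68, 7.08 and 6.93 in the shEI24 arrays, against 6.84 and 6.78 in shGFP cells and 6.55 and 6.87 in parental cells (0.02, limma adjusted p = 0.89). The shEI24 arrays overlapped the control arrays for these 3 genes. All 4 shEI24 arrays of GABARAP lay above both parental arrays, and it was called higher against parental cells (0.26, limma adjusted p = 0.017) and against both controls pooled (0.16, limma adjusted p = 0.045). The MAP1LC3B value may be affected by the near-identical gene MAP1LC3B2, and a cluster that carries both symbols was not used.

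All 5 cargo receptors were called higher, beside 26.8% of all genes, with a median log2 fold change of 1.12. OPTN, a receptor for ubiquitinated mitochondria and bacteria, was at 9.36 and 9.24 in clone 1 and 9.93 and 9.80 in clone 2, against 6.78 and 6.82 in shGFP cells and 6.62 and 6.85 in parental cells. Both clones were above both controls, with clone 2 the higher, and the difference was 6.88-fold (log2 fold change 2.78, SE 0.09, limma adjusted p = 2.6e-08). SQSTM1, the ubiquitin receptor p62, was at 11.37 and 11.31 in clone 1 and 11.00 and 10.98 in clone 2, against 10.06 and 9.97 in shGFP cells and 10.81 and 10.71 in parental cells. The shEI24 arrays were highest, and the control lines also differed, with shGFP cells below parental cells. The difference was therefore 2.21-fold against shGFP cells (log2 fold change 1.15, SE 0.08, limma adjusted p = 1.8e-06), but relative to parental cells it was 0.41 on the log2 scale (limma adjusted p = 0.0014). With each line as 1 replicate and the control lines pooled, SQSTM1 was not called (0.78, limma adjusted p = 0.10). TAX1BP1, a receptor for ubiquitinated aggregates, was at 10.86, 10.58, 10.98 and 10.88 in the shEI24 arrays, against 9.75 and 9.66 in shGFP cells and 9.67 and 9.62 in parental cells. It was higher in every shEI24 array, by 2.17-fold (log2 fold change 1.12, SE 0.10, limma adjusted p = 1e-05).

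NBR1 and CALCOCO2 rose by less. NBR1, which acts beside SQSTM1 on ubiquitinated cargo, was at 10.70 and 10.39 in clone 1 and 11.10 and 10.94 in clone 2, against 10.14 and 10.07 in shGFP cells and 10.01 and 9.96 in parental cells (0.68, SE 0.10, limma adjusted p = 0.00039). CALCOCO2, the bacterial and mitochondrial receptor NDP52, was at 9.70, 9.50, 9.82 and 9.78 in the shEI24 arrays, against 9.25 and 9.14 in shGFP cells and 8.82 and 8.78 in parental cells (0.50, SE 0.09, limma adjusted p = 8e-04). No shEI24 array of either gene reached down to a control array. CALCOCO2 was further from parental cells (0.90), as shGFP cells lay above them.

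In the fusion and lysosome group, 1 of 6 genes rose, 3 fell and 2 were not called, with a median log2 fold change of -0.16. Of all genes, 26.8% were called higher and 29% lower. EPG5, a tether that joins autophagosomes to lysosomes, was at 10.04, 9.93, 10.06 and 9.93 in the shEI24 arrays, against 9.11 and 9.10 in shGFP cells and 9.25 and 9.16 in parental cells. It was higher in every shEI24 array, by 1.84-fold (log2 fold change 0.88, SE 0.08, limma adjusted p = 1.3e-05). STX17, the SNARE of the closed autophagosome, was at 8.89 and 8.70 in clone 1 and 9.27 and 9.11 in clone 2, against 9.94 and 9.89 in shGFP cells and 9.85 and 9.79 in parental cells. It was lower in every shEI24 array, by 1.89-fold (log2 fold change -0.92, SE 0.09, limma adjusted p = 1.9e-05). SNAP29, the SNARE that pairs with STX17, fell by 0.38 and LAMP2, a lysosomal membrane glycoprotein, by 0.44. VAMP8, the lysosomal SNARE, was at 11.16 and 11.14 in clone 1 and 10.69 and 10.68 in clone 2, against 10.82 and 10.80 in shGFP cells and 10.98 and 11.00 in parental cells. Clone 1 was above and clone 2 below every control array, and their mean was not called (0.11, limma adjusted p = 0.20). LAMP1, another lysosomal membrane glycoprotein, was at 0.05 and not called.

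TFEB, the transcription factor that drives lysosomal and autophagy genes, was at 7.51, 7.67, 7.71 and 7.65 in the shEI24 arrays, against 7.27 and 7.41 in shGFP cells and 7.02 and 7.36 in parental cells. The shEI24 arrays were above the controls by a small margin, and the call was close to the threshold (0.29, SE 0.11, limma adjusted p = 0.047). It was lost when clone 1 replicate 2, either array of clone 2 or either shGFP array was left out, with limma adjusted p between 0.07 and 0.29. TFEB binds the palindrome CACGTG (an E-box), often in the longer form TCACGTGA, which contains it, and both read the same on either strand. RefSeq promoters of assembly GRCh38.p14, from 250 bases before to 50 after the start, were given for 40 of the 47 genes and searched for both. CACGTG was in a promoter of 4 of the 40, beside 8.77% of all 27305 genes with a promoter, and TCACGTGA in 2, beside 1.18%. The matches with their flanks are shown to place the motif, which is in capitals, in the genes that hold it, for LAMP1 the first of 2.
ATG3 (chr3:112561931-112561978, minus strand): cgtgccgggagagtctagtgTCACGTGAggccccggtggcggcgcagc
LAMP1 (chr13:113297190-113297237, plus strand): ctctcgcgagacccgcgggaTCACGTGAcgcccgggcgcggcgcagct
ATG14 (chr14:55411826-55411871, minus strand): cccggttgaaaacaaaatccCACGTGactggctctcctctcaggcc
SNAP29 (chr22:20858803-20858848, plus strand): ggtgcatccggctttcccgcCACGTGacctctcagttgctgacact
Of these genes ATG3, LAMP1 and ATG14 were not called (0.08, 0.05 and 0.03) and SNAP29 fell by 0.38. The promoters searched among the genes that rose at least 2-fold held neither motif in this window. These promoters were too few to be read against the 8.77% and 1.18% of all genes. The promoter of GABARAPL1, shown because it had the largest rise, is one of them (chr12:10212627-10212926, plus strand, 51.7% G and C).
GABARAPL1: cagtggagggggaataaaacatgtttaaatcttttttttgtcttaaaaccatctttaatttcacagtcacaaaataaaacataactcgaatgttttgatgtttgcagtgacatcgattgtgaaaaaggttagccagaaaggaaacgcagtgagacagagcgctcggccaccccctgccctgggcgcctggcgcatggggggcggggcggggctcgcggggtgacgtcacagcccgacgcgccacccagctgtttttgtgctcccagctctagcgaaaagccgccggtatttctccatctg
A match or its lack describes these letters only.

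The clones were compared with each other as a second question, since each is an independent line. Clone 1 minus clone 2, 5 of the 47 genes were called higher in clone 1 (10.6%), beside 9.29% of all genes, and 6 lower (12.8%), beside 5.88%. No nucleation, membrane or ATG8 gene was among them, beside 15.2% of all genes called in either direction. GABARAPL1 (-0.54), VMP1 (0.24) and MAP1LC3A (-0.34) lay not far above the threshold (limma adjusted p = 0.073, 0.091 and 0.094). Of the 11 called, the widest gap was that of ATG12 (-1.16, SE 0.14, limma adjusted p = 0.0010), a 2.23-fold lower level in clone 1. EI24 was lower in clone 1 (-0.68), as were OPTN (-0.57), NBR1 (-0.48), ATG4D (-0.41) and STX17 (-0.40). ATG10 (0.63), ATG7 (0.56), VAMP8 (0.47), ATG13 (0.37) and SQSTM1 (0.35) were higher in clone 1. For ATG7, ATG10, SQSTM1, OPTN, NBR1, STX17 and EI24 the clones were both called in the same direction against shGFP cells, so that the clones differed in size. For ATG13 only clone 2 was called (-0.57, limma adjusted p = 0.00063, against -0.19 in clone 1). For ATG4D only clone 1 was called (-0.34, limma adjusted p = 0.0084, against 0.06 in clone 2), and for VAMP8 likewise (0.34, limma adjusted p = 0.0059, against -0.12 in clone 2). Fewer genes were called between the clones when any array of the clones or of shGFP cells was left out, which leaves a single array in that line. The same held among all genes.

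**Figure D3:**
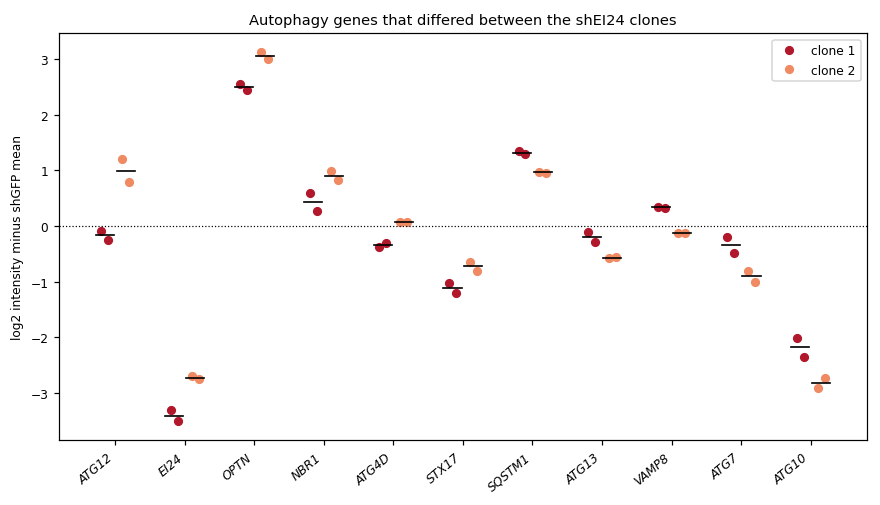
Log2 intensity minus the mean of the shGFP arrays, in shEI24 clone 1 and clone 2, for the 11 genes called between the clones; points are arrays and bars are clone means. ATG12 lies at -0.16 in clone 1 and 0.99 in clone 2, and VAMP8 at 0.34 in clone 1 and -0.12 in clone 2, while the EI24, ATG10 and OPTN points keep their side of 0 in both clones.

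The control lines were also set against each other. In shGFP cells minus parental cells, 2 of the 47 genes were called higher (4.26%), beside 3.21% of all genes, and 4 lower (8.51%), beside 7.44%. ATG10 (0.49) and CALCOCO2 (0.39) were higher in shGFP cells. SQSTM1 (-0.74, SE 0.09, limma adjusted p = 0.0018), WIPI1 (-0.57, limma adjusted p = 0.018), GABARAPL2 (-0.46, limma adjusted p = 0.013) and ATG4D (-0.34, limma adjusted p = 0.039) were lower. For SQSTM1 and WIPI1 the shEI24 arrays lay above both control lines, for ATG10 and GABARAPL2 below both, and the control chosen sets the size of the difference. Between shGFP and parental cells fewer genes were called when any array of these lines was left out, which leaves a single array in that line. The same held among all genes.

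Further genes of the pathway, in 5 lists with 162 measured of 177, were counted in the same comparison with shGFP cells. Of the 162, 71 were called higher (43.8%) and 57 lower (35.2%), beside the 26.8% and 29% of all genes above, and their median log2 fold change, 0.08, equals that of all genes. With the dimmest 25% of genes left out, the shares over all genes were 30.6% and 37.4%. The counts of each list below stand beside the same shares. The lists were chosen with earlier results of these data known. Of 34 nutrient and energy regulators, 11 rose, 14 fell and 9 were not called (median -0.16). Among those that rose without overlap were PRKAA2, a catalytic subunit of the energy sensor AMPK (3.17), FNIP2, a partner of folliculin (2.61), and RRAGD, a Rag GTPase that brings mTORC1 to the lysosome (2.07). Among those that fell without overlap were LAMTOR4, a subunit of the Ragulator complex (-1.43), DEPDC5, of the GATOR1 complex that inhibits mTORC1 (-1.22), and DEPTOR, an mTOR inhibitor (-1.18). PRKAA2 was at 9.77, 9.46, 9.70 and 9.38 in the shEI24 arrays, against 6.35 and 6.47 in shGFP cells and 6.68 and 6.42 in parental cells, with no overlap. Its control arrays were at percentile 26, close to the dimmest 25% of genes.

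Of 23 other core regulators, 10 rose, 8 fell and 5 were not called (median 0.18). BCL2, which binds BECN1 and holds back autophagy, was at 7.83, 7.83, 7.44 and 7.46 in the shEI24 arrays, against 9.70 and 9.57 in shGFP cells and 10.26 and 10.22 in parental cells. Its relative BCL2L1 (BCL-xL), which also binds BECN1, was at 11.69, 11.61, 11.93 and 11.90 in the shEI24 arrays, against 10.61 and 10.51 in shGFP cells and 10.61 and 10.48 in parental cells. The pair moved in opposite directions without overlap, BCL2 lower (-1.99, limma adjusted p = 5.3e-08) and BCL2L1 higher (1.22, limma adjusted p = 1.5e-06). DAPK1, a death-associated kinase that phosphorylates BECN1 (2.06, possibly a lower bound, with control arrays at percentile 21.3), and SH3GLB1, which binds UVRAG (1.52), rose. The lysosomal transporter SPNS1 (-1.51) and the kinase ULK3 (-1.29) fell.

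Of 22 other selective receptors and their regulators, 13 rose, 7 fell and 2 were not called (median 0.29). The mitophagy genes PINK1 (1.42) and BNIP3L (1.04) and the adaptor TOLLIP (0.97) rose, and NIPSNAP1 (-1.57), BCL2L13 (-1.04) and PHB2 (-0.71), all mitochondrial proteins, fell. Of 27 tethering and fusion genes, 13 rose, 8 fell and 6 were not called (median 0.18), with the adaptor PLEKHM1 (1.02) and the SNAREs STX7 (0.88) and STX8 (0.64) higher and VPS4B, of the ESCRT machinery (-1.25), VTI1B (-0.95) and TGFBRAP1 (-0.84) lower. Of 56 genes of the lysosome and the TFEB family, 24 rose, 20 fell and 12 were not called (median 0.02). MITF, a relative of TFEB, was at 9.94, 9.92, 9.47 and 9.43 in the shEI24 arrays, against 7.24 and 7.23 in shGFP cells and 7.07 and 7.12 in parental cells. It rose by 2.46 without overlap (limma adjusted p = 1.1e-08), beside the 0.29 of TFEB. The cathepsins CTSS (2.78, possibly a lower bound, with control arrays at percentile 9.60) and CTSZ (2.00) rose. CLN3, a lysosomal membrane protein (-1.41), ATP6V1A, a subunit of the proton pump (-0.80), and HEXA, a hexosaminidase subunit (-0.72), fell.

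The study also examined Complex I of the TNF receptor, the signalling assembly that leads to NF-κB activation. The 4 Complex I genes measured were called higher in the shEI24 clones, beside 26.8% of all genes: BIRC2, the ubiquitin ligase cIAP1 (1.75, limma adjusted p = 3.4e-07), TNFRSF1A, the receptor (0.61, limma adjusted p = 0.00015), TRAF5 (0.46, limma adjusted p = 0.015) and the adaptor TRADD (0.39, limma adjusted p = 0.0019). TRAF2, RIPK1 and BIRC3 were not analysed here. These values are RNA levels, and neither autophagic flux nor protein was measured by the arrays.

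**Figure D4:**
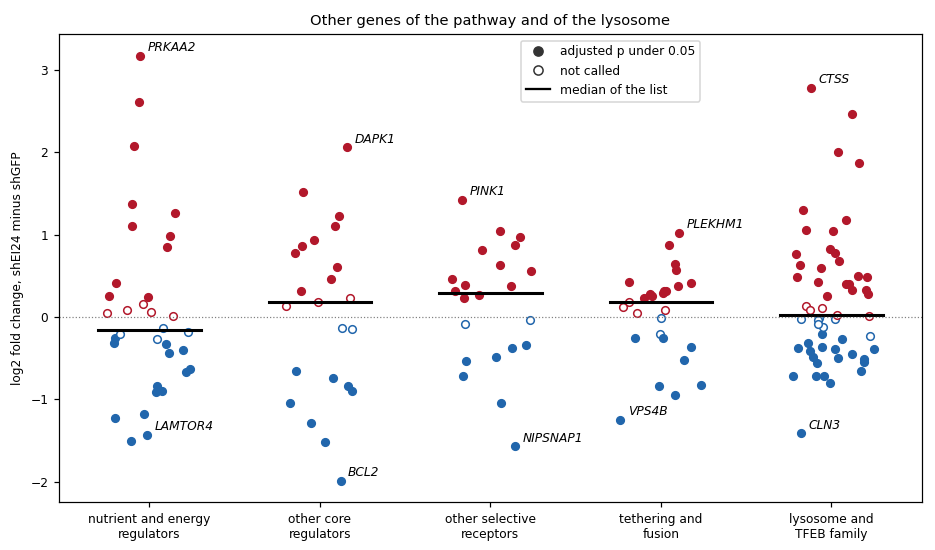
Log2 fold change, shEI24 clones minus shGFP cells, of each gene in the 5 further lists of pathway genes; each point is a gene, filled where the limma adjusted p is under 0.05, the bar is the median of the list, and labels mark genes with large changes whose shEI24 arrays did not overlap the control arrays. Each list spreads to both sides of 0, with medians between -0.16 and 0.29.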

How the data were processed

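Total RNA of 8 ZR-75-1 samples, 2 each of shEI24 clone 1, shEI24 clone 2, shGFP and parental cells, was hybridised to Affymetrix arrays. The deposited values are log2 intensities for 33297 transcript clusters. According to the submitters' processing notes, GCOS and RMA were used, in versions not stated there. The RMA method corrects for background, gives all arrays nearly the same distribution and summarizes probes, so a change in total RNA per cell is not seen, and low values compress differences. The methods name the exon 1.0 ST array, whereas the cluster IDs match the annotation of the gene 1.0 ST array, which was used for names. A symbol was given for 19460 clusters, several for 1754 and none for 12083. The brightest cluster of each gene was kept, leaving 18417 genes. Array medians were 7.28 to 7.39, and no 2 arrays were identical. The number of arrays limits the precision. Clone and replicate were read from the labels' paired numbers, clone first.

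Differences were fitted by lmFit and eBayes of limma 3.58.1 (R 4.3.3) on a mean for each line, with 4 residual degrees of freedom, and adjusted by Benjamini-Hochberg over all genes at a threshold of 0.05. The shEI24 value is the mean of both clones. Values in every array are given for EI24, all ATG8 genes and receptors, the largest change of each step, genes that changed by at least 0.8 on the log2 scale without overlap, and some others chosen after their values were seen. From each further list up to 3 genes in each direction without overlap are named. The genes and lists were chosen with earlier results of these data known. The procedure was also run on simulated data, whose outcome is not given here and lends no weight to the calls. Alternatives changed the control, the replicate unit, the test, the variance model, the scaling, the filter on dim genes, the cluster and the arrays used.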

Additional observations from a re-analysis of the deposited data

Results flagged for a closer look

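The shEI24 clones differed from each other, by the limma contrast of clone 1 minus clone 2, in 11 of the 47 genes. In the initiation and conjugation steps these were ATG13 (0.37), ATG4D (-0.41), ATG7 (0.56), ATG10 (0.63) and ATG12 (-1.16). Among the receptors they were SQSTM1 (0.35), OPTN (-0.57) and NBR1 (-0.48), and among the fusion genes STX17 (-0.40) and VAMP8 (0.47). EI24 itself differed by -0.68, so the line with less EI24 RNA was clone 1. With 2 clones, the part of the EI24 level in these differences cannot be told apart from any other difference between the clones.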

How the results depend on the processing

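Under every alternative EI24 stayed lower and called, at -3.11 to -3.01 with single arrays left out. Of the 33 called genes, 18 kept their call and direction under all 20 alternatives besides the 2-fold threshold, and no called gene reversed. With each line as 1 replicate the lower count was 8 (18.6% of all genes). The methods' test on each gene gave 13 higher (17.4% of all genes) and 9 lower (20.2%) after Benjamini-Hochberg, with the call of NBR1 among those lost. It called 0 between the clones, where 10 of the 47 had an unadjusted p under 0.05 (18 in limma), beside 2996 of all 18417 genes. Between shGFP and parental cells it also called 0, where 14 had such a p (12 in limma), beside 4152 of all genes. With trend and robust variances, 17 differed between the clones (20.5% of all genes) and 11 between shGFP and parental cells (16.9%). A second quantile normalization gave a median of 0.16, against 0.10 over all genes. At least 2-fold changes were 6 higher, 3 lower, 1 between the clones and 0 between shGFP and parental cells. With single arrays left out, the counts were 14 to 17 higher and 13 to 17 lower, 4 to 12 between the clones and 1 to 6 between shGFP and parental cells, and the median was 0.03 to 0.08.

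Same-numbered arrays deviated together in every pair of lines (correlations 0.25 to 0.59), a hint from the data that the numbers may tie the arrays; no label says so, and with 2 numbers per line the values above leave the block out. With the replicate block, 18 were higher (34.2% of all genes), 18 lower (31.2%), 16 differed between the clones (22.7%) and 10 between shGFP and parental cells (18.7%). The block ended no call of shEI24 against shGFP and added those of ULK1, RB1CC1 and ATG4C (limma adjusted p = 0.028, 0.050 and 0.050).

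The genes that changed sign were all uncalled. With parental cells as the control these were RB1CC1 (0.03), ATG3 (-0.06), VAMP8 (-0.07) and LAMP1 (-0.04). With the second quantile normalization ATG4B was 0.04 and MAP1LC3A -0.03, and with arrays centred on their medians ATG14 was 0.00 and MAP1LC3A -0.01. With single arrays left out, ATG14 was -0.04 (without clone 2 replicate 1) to 0.09, MAP1LC3A -0.02 (likewise) to 0.06 and ATG4B -0.10 to 0.00 (without shGFP replicate 1). The causes of these moves were not tested.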
